A study of Mus musculus with 2 samples.

Results

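The 9 genes described here, Cd79a, Cd79b, Cd22, Ms4a1, Syk, Btk, Blk, Blnk and Bank1, encode chains of the B cell antigen receptor, B cell surface proteins that act with it, and the kinases and adaptors that carry its first signals. They were chosen by name among the 37008 gene names on the array, and all 18 probes that carry one of these names are included. The study compared lymph node stroma of 2 groups, each with 1 sample on 1 one-color Agilent microarray. The tumor-draining sample came from nodes of mice inoculated with 4T1 cells, a mouse mammary carcinoma line, 2 weeks earlier. The normal sample came from nodes of mice without a tumor. The labels name C57BL/6 mice, whereas 4T1 is known as a BALB/c line, so the graft and its host may differ in strain. Both samples were female and were sorted as cells without CD45, the surface antigen of leukocytes, so in both groups the sort was meant to remove B cells. The age and number of the mice, and whether animals were pooled, are not given in the sources used here.

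In a B cell, the surface immunoglobulin is held in the membrane by a pair of signaling chains, CD79a and CD79b, whose tails carry tyrosine motifs. When antigen binds, Src family kinases phosphorylate these motifs, Syk docks on them, and the adaptor BLNK brings Btk to phospholipase C, which opens the calcium and NF-kappa-B arms of the response. Syk and Btk also act in myeloid cells, whereas CD79a, CD79b and CD20, the product of Ms4a1, are known mainly from B cells, which fill the follicles that lymph node stroma supports.

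The probes are shown first because the differences below depend on which probe of a gene is read. Each probe has 60 bases, and its position is that given by the array files on the mm9 build. No mm9 annotation was used here, so exons and UTRs are not stated. Of the 18 probes, 3 cover more than 60 bases of genome and so lie across at least 1 gap between genomic blocks. They are given whole, 5′ to 3′. The Cd79a probe (transcript NM_007655, plus strand) lies at chr7:25684357-25684614. The Blk probe (NM_007549, minus strand) lies at chr14:63997333-63998470. The Cd22 probe of this kind (NM_009845, minus strand) lies at chr7:31661143-31662467.
Cd79a: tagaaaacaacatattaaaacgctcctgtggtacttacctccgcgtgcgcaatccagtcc
Blk: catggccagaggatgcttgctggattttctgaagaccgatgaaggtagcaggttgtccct
Cd22, spanning probe: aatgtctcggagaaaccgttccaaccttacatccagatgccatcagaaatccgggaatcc

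Cd22 and Syk had the probes that disagreed most, and the first 30 bases of their other probes are given, since those probes read different stretches of each gene. For Cd22, all on the minus strand of chromosome 7, they are a probe for NM_001043317 at chr7:31651249-31651308, the brightest probe, for NM_009845, at chr7:31651590-31651649, and a probe for XM_006539495 at chr7:31665113-31665172. For Syk, all on the plus strand of chromosome 13, they are a probe for ENSMUST00000150672 at chr13:52708988-52709047, a probe for AK049207 at chr13:52738924-52738983, and a pair of probes for NM_011518, at chr13:52741275-52741334 and, the brightest, at chr13:52744088-52744147.
Cd22, NM_001043317 probe: gaaaaatgaaaaaccaaccaaccaaccaaa
Cd22, brightest probe: ggaggatgagagcatccattactcagagct
Cd22, XM_006539495 probe: agggcctgctgtgttttttcatctacttta
Syk, ENSMUST00000150672 probe: cctagaaatataggtgtttcctctgcattt
Syk, AK049207 probe: gaccacaggctcgatccaattataattaaa
Syk, dimmer NM_011518 probe: aagctaacataggactcaccctcacaacag
Syk, brightest probe: cccagagcagcacacagtgattccctgtta

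Promoter windows of 250 bases before and 50 bases after the annotated start were found in RefSeq's sequences for 6 of the 9 genes (Bank1, Blnk, Btk, Cd22, Cd79a and Syk, with 7 windows), on GRCm38.p6, a later build than that of the probes. They were searched on both strands for 3 motifs of B cell regulators. The octamer ATTTGCAT, read by Oct family factors, was in the Blnk window alone, and in 1.74% of 32851 promoters. An ETS motif, AGGAAGT, of the kind read by PU.1 and its relatives, was in the Blnk and Cd79a windows, and in 9.35% of promoters. The EBF motif CCCNNGGG was in the Bank1 and Cd22 windows, and in 13.7% of promoters. No matches overlapped each other. The 250 bases before the start are shown for Cd79a and Blnk, since these hold the ETS and octamer letters, which are in capitals. The Cd79a stretch is chr7:24897247-24897496 on the plus strand, with its match beginning 55 bases before the start. The Blnk stretch is chr19:40994222-40994471 on the minus strand, with the ETS match beginning 202 bases and the octamer 130 bases before the start. A match of letters is a description and not a site in use.
Cd79a promoter: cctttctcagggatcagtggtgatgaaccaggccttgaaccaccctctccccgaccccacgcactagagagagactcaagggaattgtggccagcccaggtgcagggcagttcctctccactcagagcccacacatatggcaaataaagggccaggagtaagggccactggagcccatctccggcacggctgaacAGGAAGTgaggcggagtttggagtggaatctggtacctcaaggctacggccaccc
Blnk promoter: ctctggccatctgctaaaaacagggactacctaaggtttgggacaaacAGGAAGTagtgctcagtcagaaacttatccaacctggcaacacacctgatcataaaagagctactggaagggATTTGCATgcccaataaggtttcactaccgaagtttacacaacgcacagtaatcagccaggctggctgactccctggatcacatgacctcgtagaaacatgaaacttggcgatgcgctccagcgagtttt

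All values below are the scanner software's background-subtracted signals, in its linear intensity units. Differences are log2, tumor-draining minus normal, after each array was scaled to its own 75th percentile of signal (358 on the tumor-draining array and 374 on the normal array). A gene is read from its brightest probe and is called higher or lower where the difference was at least 2-fold. With 1 array a group there is no test and no replicate error. The errors that the files hold are a median SD of 0.050 between repeated spots of a probe (298 probes) and a median SD of 0.27 between probes of a gene (7599 genes), on the log2 scale, and neither covers differences between mice. Each member probe was printed once, and no member spot was saturated or marked as an outlier. Of 56605 probes, 35572 were well above background on the tumor-draining array and 36785 on the normal array. The labelled cell type was represented on both arrays by Pdpn, a fibroblastic reticular cell glycoprotein, with a signal of 1139 on the tumor-draining array and 4624 on the normal array, and by Pecam1, the endothelial adhesion molecule CD31, with 248 on the tumor-draining array and 581 on the normal array. Ptprc, which encodes the CD45 that the sort excluded, was also above background, with 17432 on the tumor-draining array and 3702 on the normal array. In RNA from many cells, fewer cells of a type and less RNA per cell cannot be told apart.

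Every one of the 9 genes had a higher scaled signal in tumor-draining stroma, and 5, Cd79a, Cd22, Ms4a1, Btk and Bank1, were called at least 2-fold higher. Over the 24656 genes measured, meaning well above background on 1 array or both, 11.5% were called higher and 16.5% were called lower. No member was called lower. The median difference was 1.35 over the 9 genes and 0.10 over all genes. Within all genes, 5 members lay among the 10% with the highest differences and all 9 among the highest 20%. When the arrays were scaled to spike-in RNA instead, all 9 members were called higher, but so were 46.0% of all genes, whose median difference was then 0.92. That scaling adds 0.82 to every difference given here, so values between -0.82 and 0 turn positive under it.

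The chains and surface proteins of the B cell held both large and small differences. Cd79a, which encodes the alpha signaling chain, had a signal of 757 on the tumor-draining array and 307 on the normal array, a difference of 1.36 or 2.57-fold. Cd79b, which encodes its partner chain, had a signal of 23806 on the tumor-draining array and 14678 on the normal array. Its difference was 0.76, or 1.69-fold, and it was not called. The proteins of these genes work as a dimer, but the difference of Cd79a exceeded that of Cd79b by 0.60 on the log2 scale, with a range of 0.44 to 1.07 over the 12 settings tried. The settings that shift all genes by the same amount could not change that gap. Each gene has a single probe, so the gap carries the probe error of both genes. The median SD of 0.27 between probes of a gene describes the error of 1 gene only, and whether the gap exceeds probe error was not tested. The Cd79b probe (NM_008339) lies at chr11:106172780-106172839 on the minus strand.

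Cd22 and Ms4a1 stood higher than either signaling chain. Cd22, a sialic acid-binding lectin whose tail recruits phosphatases and damps the receptor, had a signal of 2282 on the tumor-draining array and 408 on the normal array. Its difference was 2.55, or 5.84-fold, and 1.14% of genes had a higher one. Ms4a1, which encodes CD20, a membrane protein of mature B cells, had a signal of 13100 on the tumor-draining array and 2707 on the normal array. Its difference was 2.34, or 5.05-fold, and 1.74% of genes had a higher one. The brightest Ms4a1 probe (NM_007641) lies at chr19:11325409-11325468 on the minus strand.

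Of the 3 kinases, read from their brightest probes, only Btk was called higher, while Syk also passed by the mean of its probes. Syk, the kinase that docks on the phosphorylated chains, had a signal of 7422 on the tumor-draining array and 4498 on the normal array, a difference of 0.78 or 1.72-fold. Btk, the Tec family kinase that activates phospholipase C and whose loss in people stops B cell development, had a signal of 1955 on the tumor-draining array and 800 on the normal array. Its difference was 1.35, or 2.55-fold, and its brightest probe (NM_013482) lies at chrX:131076995-131077054 on the minus strand. Blk, a Src family kinase of B cells, had a signal of 176 on the tumor-draining array and 101 on the normal array. The difference of Blk was 0.86, or 1.82-fold, which fell short of the 2-fold rule as that of Syk did.

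The adaptors gave the largest difference among the 9 genes and one of the smaller ones. Bank1, a scaffold that binds Lyn and the inositol trisphosphate receptor, had a signal of 3379 on the tumor-draining array and 461 on the normal array. Its difference was 2.94, or 7.65-fold, and 0.600% of genes had a higher one. Blnk, the adaptor that links Syk to Btk and phospholipase C, had a signal of 18068 on the tumor-draining array and 10550 on the normal array. The difference of Blnk was 0.84, or 1.79-fold, and it was not called. The brightest Bank1 probe (NM_001033350) lies at chr3:135716867-135716926 and the Blnk probe (NM_008528) at chr19:41003426-41003485, both on the minus strand.

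**Figure D1:**
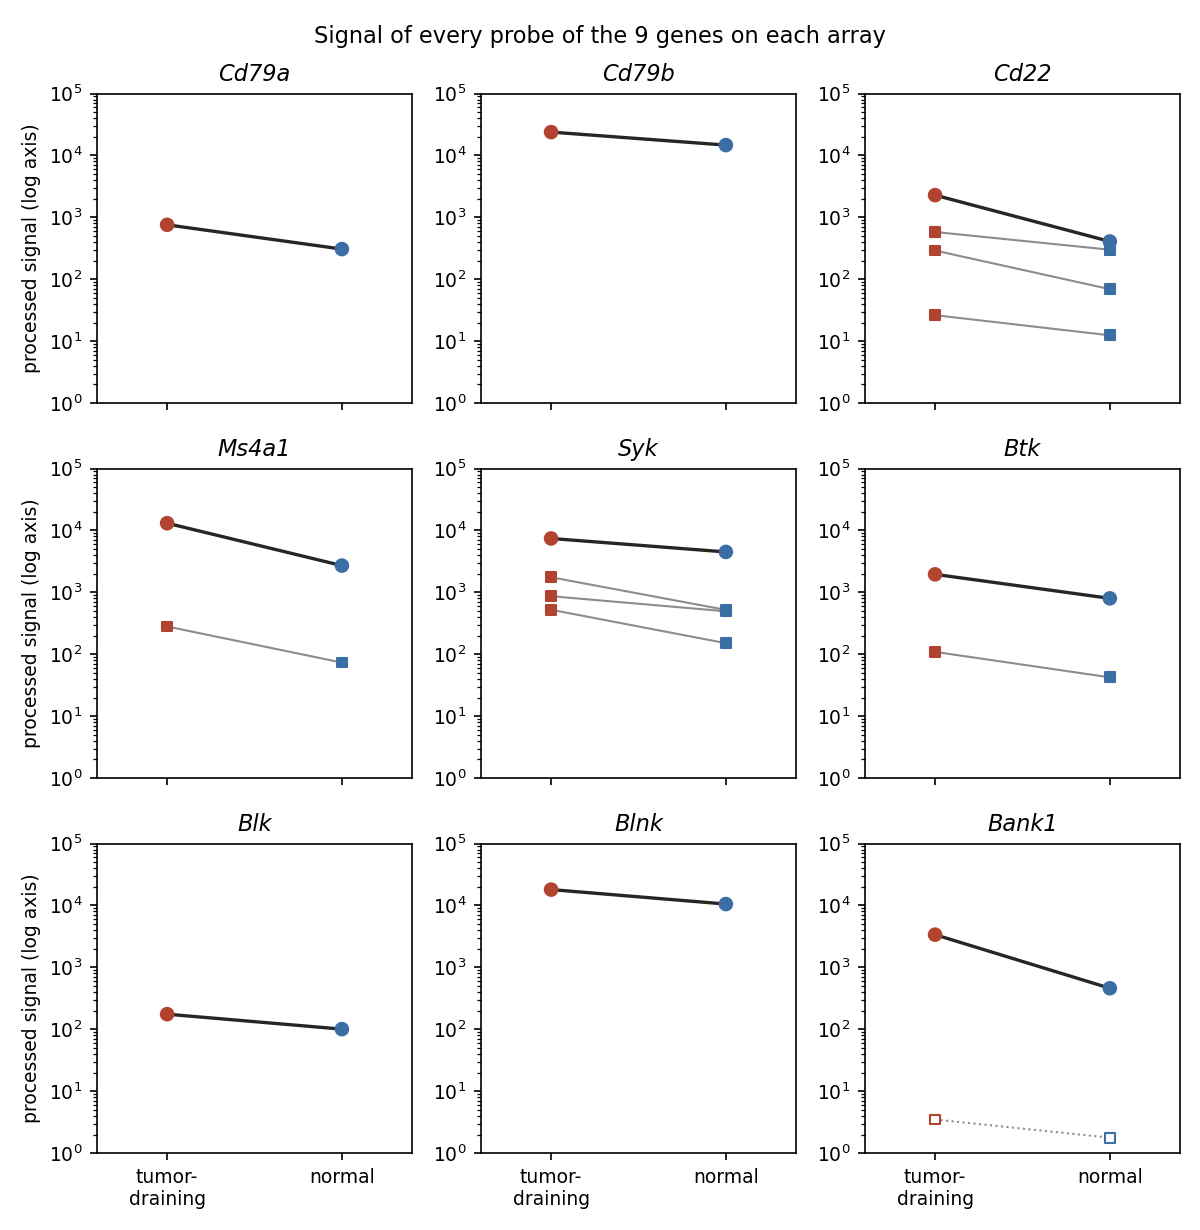
Processed signal of each probe of the 9 genes (log axis, linear intensity units before scaling) on the tumor-draining array (left, red) and the normal array (right, blue), with circles for the brightest probe of a gene, squares for its other probes and open symbols for a probe not well above background. Every line falls toward the normal array, steeply for Bank1 (3379 tumor-draining, 461 normal) and gently for Cd79b (23806 tumor-draining, 14678 normal).

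The probes of a gene agreed on which array was higher, but not always on the size. Of the 18 probes, 17 were well above background on both arrays, and all 17 had a positive difference, from 0.76 to 2.94, with 12 of them at least 2-fold higher. Read from its lowest probe, a gene passed the 2-fold rule in 5 of 9 cases, and read from its highest probe or from the mean of its probes, in 6. Syk accounts for the change. The other probe of Bank1 (ENSMUST00000198034, chr3:135874089-135874148, minus strand) was not well above background on either array, with signals of 3.49 on the tumor-draining array and 1.78 on the normal array. Its GC content of 18.3% is the lowest of the 18 probes.

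For Syk the probes fell into 2 pairs. The probes for NM_011518 had signals of 868 and 7422 on the tumor-draining array against 495 and 4498 on the normal array, with differences of 0.87 and 0.78. The probe for ENSMUST00000150672 had 1755 on the tumor-draining array and 521 on the normal array, a difference of 1.81. The AK049207 probe had 524 on the tumor-draining array and 151 on the normal array, a difference of 1.86. Thus the mean over the 4 probes was 1.33 with an SD of 0.58, and Syk passes the 2-fold rule by that mean and fails it by its brightest probe. That SD is above the upper quartile of such SDs over all genes, 0.50.

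For Cd22 the order along the gene did not follow the size of the difference. The NM_001043317 probe had a signal of 580 on the tumor-draining array and 300 on the normal array, a difference of 1.01. The brightest probe, at 2.55, is its nearest neighbor among the 4. The spanning probe had 291 on the tumor-draining array and 69.2 on the normal array, a difference of 2.13, and the XM_006539495 probe had 26.3 on the tumor-draining array and 12.4 on the normal array, a difference of 1.14. In the main setting all 4 probes were at least 2-fold higher, with a mean of 1.71 and an SD of 0.75, while the size ranged over 1.53 on the log2 scale. The probes at 1.01 and 1.14 passed the rule narrowly. Under the other settings only the brightest probe and means over probes were read, so the call on those probes is not known there.

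Ms4a1 and Btk had probes closer to each other. The other Ms4a1 probe (ENSMUST00000169159, chr19:11324334-11324393, minus strand) had 281 on the tumor-draining array and 73.5 on the normal array, a difference of 2.00, against 2.34 for the brightest. The other Btk probe, at chrX:131083955-131084014 on the minus strand, had 109 on the tumor-draining array and 42.4 on the normal array, a difference of 1.43, against 1.35. The SD between probes was 0.24 for Ms4a1 and 0.055 for Btk, both under the median of 0.27 over all genes. Cd79a, Cd79b, Blk and Blnk have 1 probe each, and no such error can be given for them.

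**Figure D2:**
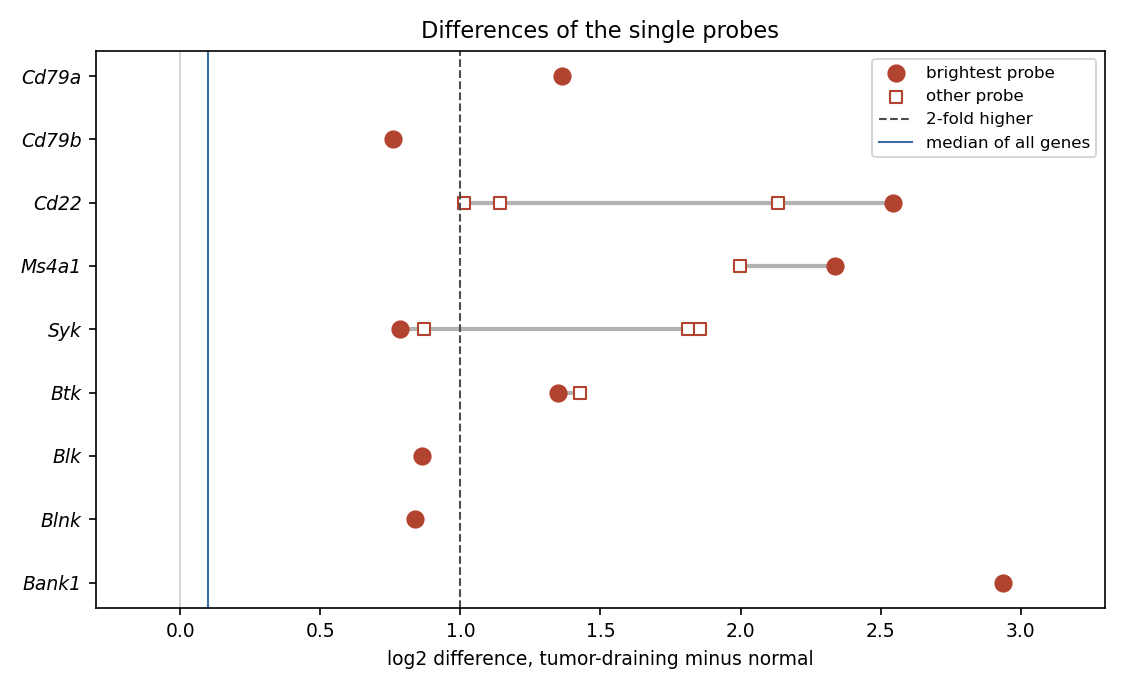
Log2 differences, tumor-draining minus normal, of the 17 member probes above background on both arrays, with filled circles for the brightest probe of each gene, open squares for other probes, grey bars for the range, a dashed line at 2-fold and a blue line at the median of all genes (0.10). The Syk probes lie on both sides of the 2-fold line, and all Cd22 probes lie above it, from 1.01 to 2.55.

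The wider pathway was read through 59 other genes in 5 lists, of which 57 were measured. Of these, 32 were called higher and 1 was called lower, with a median difference of 1.12, against 0.10 over all genes and 11.5% of all genes called higher. The exception was Cd81, a tetraspanin that many other cells carry too, with 8825 on the tumor-draining array and 20574 on the normal array, a difference of -1.16. Cr2, a complement receptor that lowers the threshold of B cell activation, had 6603 on the tumor-draining array and 1575 on the normal array, a difference of 2.13. The surface list had 3 measured genes, with a median of 1.07. Ighm and Ighd, the immunoglobulin heavy chains, had no probe under those names.

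Of 9 proximal kinases and their regulators, 6 were called higher and none lower, with a median of 1.31. Ptpn22, a phosphatase that restrains Src family kinases in lymphocytes, had 3541 on the tumor-draining array and 425 on the normal array, a difference of 3.12. Ptprc was at 2.30, the kinase Fgr at 1.94, the adaptor Pag1 at 1.79, Csk, which switches Src family kinases off, at 1.31, and Tec at 1.16. The Src family kinases Lyn and Fyn were within 2-fold, at 0.79 and 0.63. Lyn, known as the main kinase of the receptor's first step in B cells, had 8007 on the tumor-draining array and 4834 on the normal array.

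Among 13 inhibitory receptors and phosphatases, 7 were called higher and none lower, with a median of 1.09. The highest were Fcrl1 (2.56), an Fc receptor-like protein of B cells, Cd5 (2.51), a receptor of T cells and of a B cell subset, and Lair1 (2.13), a collagen receptor of leukocytes. The lowest were Fcrl5 (0.35), Pirb (0.23) and Ceacam1 (-0.0036), read from their brightest probes. Another probe reached 1.24 for Fcrl5 and 1.18 for Pirb. For Fcrl1 the signals were 504 on the tumor-draining array and 89.2 on the normal array, and for Ceacam1 they were 316 on the tumor-draining array and 331 on the normal array. Read from its brightest probe, Cd22 therefore had a difference close to the top of this list, although the median of the list was below that of the 9 genes. The mean over the Cd22 probes, 1.71, was below those top values, and its lowest probe, at 1.01, was below the median of the list.

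Among 16 adaptors, lipid enzymes and exchange factors, 8 were called higher and none lower, with a median of 1.15. Lat2, a membrane adaptor of B and myeloid cells, had 682 on the tumor-draining array and 125 on the normal array, a difference of 2.52. Rac2, a GTPase of blood cells, was at 1.75, and Dapp1, an adaptor that binds phosphoinositides, was at 1.58. At the other end, Pik3r1, the regulatory subunit of PI3 kinase, was at 0.18, Shc1 at -0.76 and Nck1 at -0.97. Shc1 and Nck1 are adaptors used by many cell types. Shc1 had 1386 on the tumor-draining array and 2451 on the normal array, and Nck1 had 606 on the tumor-draining array and 1236 on the normal array.

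Downstream, 9 of 16 genes of the calcium, protein kinase C and NF-kappa-B arm were called higher and none lower, with a median of 1.10. Rel, the c-Rel subunit of NF-kappa-B, had 20479 on the tumor-draining array and 4548 on the normal array, a difference of 2.23. Malt1, a protease of the complex that relays the receptor signal to NF-kappa-B, was at 1.76. Stim1, the calcium sensor, was at 0.22, the inositol trisphosphate receptor Itpr1 at -0.15, and Nfkbia, the inhibitor of NF-kappa-B, at -0.25, with 33062 on the tumor-draining array and 41123 on the normal array. The place of Itpr1 depends on the probe, since its 4 probes ran from -0.15 to 1.20.

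T cells use a parallel set of genes, and in each of the 5 pairs described here the B cell gene had a smaller difference than its T cell relative. Of 9 such genes, 8 were called higher, with a median of 2.32, against 1.35 over the 9 B cell receptor genes. Zap70, the T cell relative of Syk, had 4722 on the tumor-draining array and 985 on the normal array, a difference of 2.32. The difference of Syk was lower than that by 1.54, and its highest probe (1.86) was also under the lowest Zap70 probe (2.32). Lck, a Src family kinase of T cells as Blk is of B cells, was at 2.14, and Blk was 1.28 below it. Lcp2, the relative of Blnk, was at 1.79, and Blnk was 0.95 below it.

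The receptor chains followed the same order when set against Cd3e. Cd3e, a signaling chain of the T cell receptor, had 8731 on the tumor-draining array and 2076 on the normal array, a difference of 2.13, which Cd79a missed by 0.77 and Cd79b by 1.37. Others of the T cell set were Cd3g (2.60), Cd3d (2.43), the adaptor Lat (2.38) and Cd247 (0.81), whose 4 probes ran from 0.81 to 2.01. Read from its brightest probe, Cd247 broke that order, since it was below Cd79a (1.36) and close to Cd79b (0.76). Over the 12 settings the gaps of the 5 pairs kept their sign, from -1.67 to -1.05 for Syk and Zap70, from -1.48 to -0.99 for Blk and Lck, and from -1.23 to -0.84 for Blnk and Lcp2. Scaling to the spike-ins or to probes above background shifts every gene alike, so neither could change a gap. The gaps come from the same 2 arrays and have no replicate error.

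**Figure D3:**
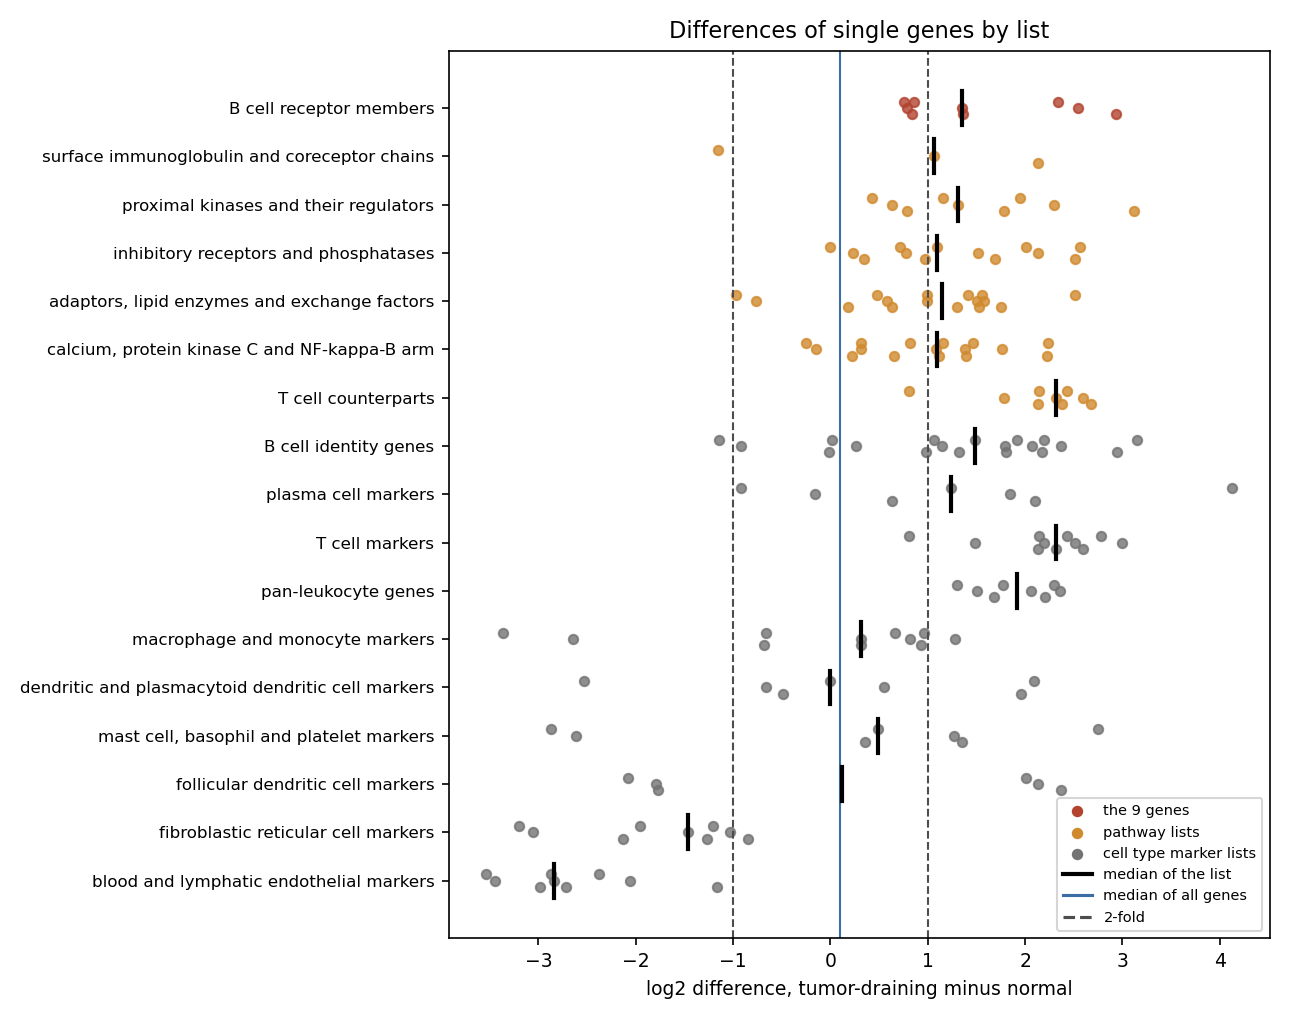
Log2 difference, tumor-draining minus normal, of each measured gene (points) in the 9 B cell receptor genes, 6 pathway lists and 10 cell type marker lists, with a black bar at the median of each list, a blue line at the median of all genes (0.10) and dashed lines at 2-fold. The 9 genes have a median of 1.35, T cell counterparts 2.32, and fibroblastic reticular and endothelial markers -1.47 and -2.84.

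Genes that mark B cells other than the 9 were mostly higher too. Of 19 B cell identity genes, all were above background on both arrays, 13 were called higher and 1 lower, with a median of 1.49, and their summed signal was 124831 on the tumor-draining array and 62338 on the normal array. The highest were Cxcr5 (3.15), the receptor that guides B cells to follicles, and Cd83 (2.94), an activation marker. Pax5, the transcription factor that maintains B cell identity, had 794 on the tumor-draining array and 238 on the normal array, a difference of 1.80. Among the other transcriptional regulators listed, Pou2f2 (2.20) and Pou2af1 (1.15) were called higher, while Ebf1 (0.26) and Spib (0.012) were within 2-fold. Ly6d was also within 2-fold, at -0.011. The lowest were Vpreb3 (-1.15), which binds immunoglobulin chains early in B cell life, with 7688 on the tumor-draining array and 17805 on the normal array, and Cd55 (-0.92), a complement regulator of many cells.

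Other leukocytes differed in the same comparison. All 8 pan-leukocyte genes were called higher, with a median of 1.92, from Arhgdib (1.30) and Vav1 (1.51) to Ptprc (2.30, over 7 probes from 1.04 to 2.67) and Itgb2 (2.35), and their summed signal was 86775 on the tumor-draining array and 27110 on the normal array. Of the 9 B cell receptor genes, 3 exceeded the median of that list, namely Cd22, Ms4a1 and Bank1, and 4 were below its lowest gene, namely Cd79b, Syk, Blk and Blnk. Of 11 T cell markers 10 were called higher, with a median of 2.32, from Cd247 (0.81) and Cd4 (1.49) to Cd8a (2.78) and Themis (2.99). Of 7 plasma cell markers 4 were called higher, with a median of 1.23. Jchain, the joining chain of secreted immunoglobulin, was highest at 4.13, with 15869 on the tumor-draining array and 946 on the normal array. Tnfrsf17, which was not well above background on the normal array, was at least 4.29-fold higher, while Xbp1 (-0.16) and Sdc1 (-0.92) were lowest.

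Myeloid markers, of interest because Syk and Btk act in those cells, had smaller or mixed differences. Of 11 macrophage and monocyte markers 1 was called higher and 2 lower, with a median of 0.31 and a summed signal of 20945 on the tumor-draining array and 26664 on the normal array. They ran from Marco (-3.36) and Mrc1 (-2.65) to Adgre1 (0.96) and Tyrobp (1.28), with Lyz2 at 0.66. Dendritic cell markers had a median of -0.0020 over 7 measured genes, 2 called higher and 1 lower, from Zbtb46 (-2.54) and Bst2 (-0.66) to Flt3 (1.96) and Ccr9 (2.09), and Xcr1 was not well above background on either array. That median is the value of Siglech, whose 3 probes ran from -0.0020 to 1.35. The probes of Flt3 ran from 0.38 to 1.96. Mast cell, basophil and platelet markers had a median of 0.49 over 7 genes, 3 called higher and 2 lower, from Pf4 (-2.87) and Itga2b (-2.61) to Ms4a2 (1.35) and Mcpt8 (2.75).

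Stromal markers went the other way. Of 9 fibroblastic reticular cell markers 8 were called lower and none higher, with a median of -1.47 and a summed signal of 154940 on the tumor-draining array and 379063 on the normal array. They ran from Ccl19 (-3.20) and Il7 (-3.06) to Pdgfra (-1.03) and Col3a1 (-0.85, with another probe at -2.42), with Pdpn at -1.96. Col1a1 was called lower from its brightest probe, but its 4 probes ran from -2.06 to 0.86, so its direction depends on the probe. The probes of Col1a2, also called lower, ran from -1.27 to -0.35. All 9 endothelial markers were called lower, with a median of -2.84, from Emcn (-3.54) and Flt1 (-3.44) to Lyve1 (-2.06) and Pecam1 (-1.17), and their summed signal was 2758 on the tumor-draining array and 19721 on the normal array. Follicular dendritic cells, the stromal cells of the B cell follicle, share Cr2, Fcgr2b and Fcer2a with B cells. Those genes were called higher, with Fcer2a at 2.37 and Cr2 at 2.13, whereas Madcam1 (-2.08), Mfge8 (-1.79) and the remaining gene of the list were called lower. The part of these cell types in the differences of the 9 genes was not tested.

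The sizes of the differences, and for 4 genes the call, moved with the scaling of the arrays. Over the main setting and 11 alternatives, Cd79a, Cd22, Ms4a1, Btk and Bank1 were at least 2-fold higher in all 12, read from the brightest probe or a mean over probes. All 9 genes had a positive difference in each. Keeping outlier spots, dropping the background filter or asking for a signal of at least 100 returned the main values of all 9 genes. These settings therefore could not move a call. For Cd79a, Cd79b, Blk and Blnk, with 1 probe each, the means over probes could not either. Cd79b, Blnk and Blk passed the rule in 1 setting, scaling to the spike-ins, with values of 1.58, 1.66 and 1.68, and Syk passed it in 3. Cd79b and Blnk were lowest after loess normalization, at 0.29 and 0.40, and Bank1 was lowest, at 1.99, when its probe that was not above background entered a mean over all probes. The median of the 9 genes exceeded that of all genes by 1.15 to 1.25 in every setting. Scaling to the spike-ins or to probes above background shifts every gene alike, so neither could move that gap by much. It was 1.25 in both, and keeping outlier spots also returned the main gap.

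**Figure D4:**
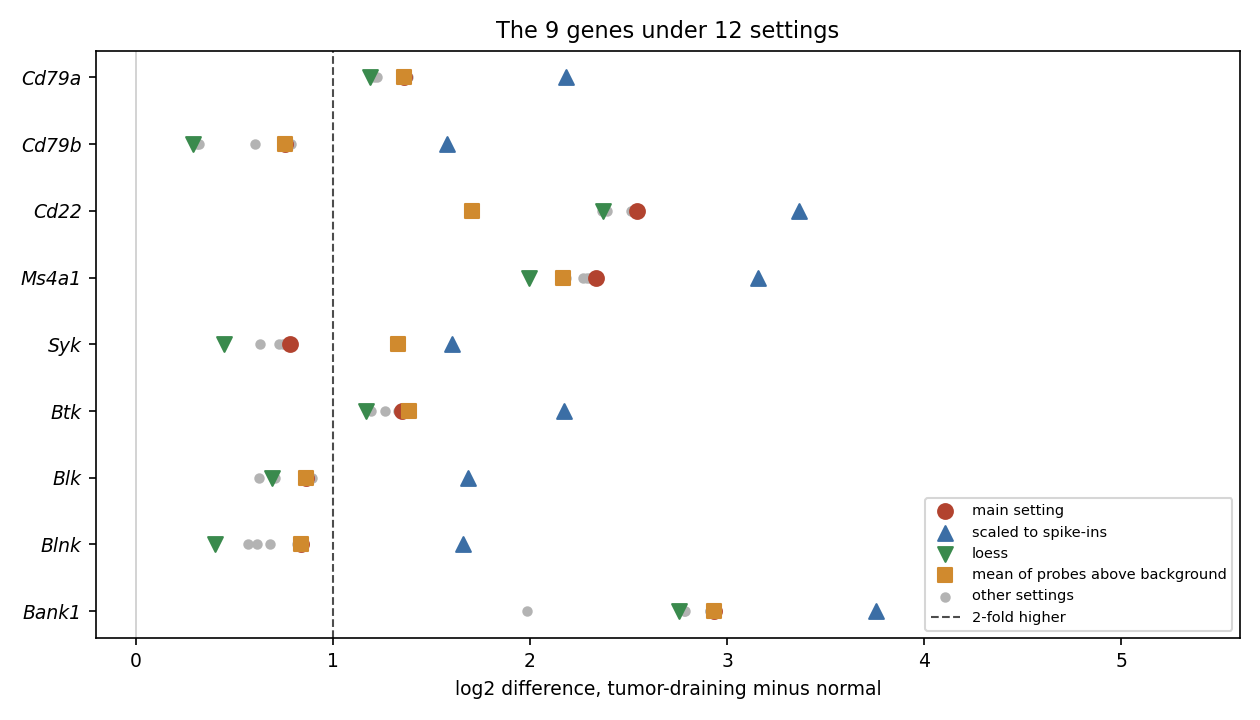
Log2 difference, tumor-draining minus normal, of the 9 genes under 12 settings, with red circles for the main setting, blue triangles for scaling to spike-ins, green triangles for loess normalization, orange squares for the mean of probes above background and grey points for the other settings, and a dashed line at 2-fold. Cd79b runs from 0.29 to 1.58 and Cd22 from 1.71 to 3.37, and no point lies below 0.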

How the data were processed

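Cells without CD45 were sorted from lymph nodes, and their RNA was amplified, labeled with Cy3 and read on 2 one-color Agilent arrays of 1 slide, 1 for each group, per the labels' protocols and the file headers. The deposited scanner files hold linear intensity values, with background subtracted by Feature Extraction per the file headers (version 12.0.3.1, protocol GE1_1200_Jun14, build mm9). Version 10.7 and limma are named in the submitters' processing notes. The authors' deposited table holds log2 values whose centering is not stated. Its columns correlated with the log2 scanner signals at r = 0.9999 (medians 4.86 for tumor-draining and 4.85 for normal), and it served as an alternative only.

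From each log2 processed signal, the array's 75th percentile, taken over its 59305 spots that are not controls, was subtracted. Outlier spots were dropped, a probe's spots were averaged, and a gene was read from its probe with the highest mean signal over both arrays. A gene above background on 1 array only has a bound. No test was possible with 1 array a group. Probes were named through RefSeq accessions (32994), symbols (10224) or synonyms (520), and 12867 kept the file's name. Members, lists and alternatives were chosen with earlier results of these data known. Every gene is named in pathway lists of up to 9, the 3 highest and 3 lowest in longer pathway lists, and the 2 highest and 2 lowest in marker lists, plus Pax5, Ptprc, Cd3e, Lyz2, Jchain, Pdpn and Pecam1. A few genes named by this rule are left out here. Where other genes or families are named, they were chosen after their values were seen. Work used Python 3.11.15 with numpy 2.4.6, pandas 2.3.3 and matplotlib 3.10.9, and R 4.3.3 with limma 3.58.1. The alternatives were normexp background correction (offset 50), quantile and loess normalization (span 0.3), scaling to probes above background on both arrays or to 6 spike-in probes with signals under 60000, means over probes, outlier spots kept, no background filter, a signal of at least 100, and the authors' table.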

Additional observations from a re-analysis of the deposited data

How the results depend on the processing

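No paired analysis was possible because each group has 1 array. Scaling to the spike-ins, whose median difference was -0.82 (from -0.97 to -0.76 over 6 probes), called 9 of the 9 genes and 50 of the 57 other pathway genes higher, with medians of 2.17 and 1.94. Loess gave the other pathway genes a median of 0.84, against 1.12 in the main setting. The cause was not tested. Every other combination of these 4 results and 11 alternatives, 39 of 44, moved less or stayed within 1.5 times the main count, and no member changed sign. Keeping outlier spots and dropping the background filter left all 4 results unchanged. A mean over probes called Syk higher, at 1.33. Over all genes, 2824 were called higher and 4071 lower in the main setting (41.0% of calls higher), 11331 and 1976 with the spike-ins (85.2%), 2233 and 4630 after loess (32.5%), 2188 and 4626 when scaled to probes above background on both arrays (32.1%), and 1390 and 2444 with normexp. The sources used here do not say whether equal spike-in RNA went into both samples. With 1 array a group, the number of arrays limits the precision.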

Other observations

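The protein families of the 9 genes spread widely, in sets chosen after values had been seen. Among Tec family kinases, Txk (2.34), Btk (1.35) and Tec (1.16) were at least 2-fold higher on the tumor-draining array, while Bmx, the member known from endothelial and myeloid cells, was at -1.94, with 77.8 on the tumor-draining array and 313 on the normal array. Src family kinases ran from Lck (2.14) and Fgr (1.94) through Blk (0.86), Lyn (0.79) and Fyn (0.63) to the widely expressed Src (-1.55) and Yes1 (-1.88). Yes1 had 144 on the tumor-draining array and 553 on the normal array. In the SLP adaptor family, Blnk (0.84) was below Lcp2 (1.79). Clnk was at 1.74 on its brightest probe, with 44.7 on the tumor-draining array and 13.9 on the normal array, and at 0.35 on its other probe, so its order against Blnk depends on the probe. Pik3ap1, the adaptor BCAP and a relative of Bank1, was at 1.56, against 2.94 for Bank1.

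Among 8 Siglec genes read from their brightest probes, Cd22 (2.55) was above those relatives that were well above background on both arrays. Siglecf and Cd33 were not well above background on the normal array. Their values are lower bounds, so their order against Cd22 is not known. The Cd22 probes ran from 1.01 to 2.55, so its order against Siglech depends on the probe. Siglecg, the other inhibitory Siglec of mouse B cells, was at 0.77, and the macrophage gene Siglec1 at 0.31. Siglech, a plasmacytoid dendritic cell gene, was at -0.0020 on its brightest probe, with its 3 probes reaching 1.35. Siglecf, not well above background on the normal array, was at least 2.01-fold higher. Of 21 Ms4a names, 13 were measured, with 9 at least 2-fold higher and 1 lower, against 11.5% of all genes called higher. Ms4a6d, among the 9, and Ms4a15 were measured through the tumor-draining array only, so their values are lower bounds. Ms4a6d was at least 5.88-fold higher. Ms4a15 was at least 1.43-fold higher, so its call is not known. Ms4a2 and Ms4a4a, also among the 9, had signals of only 11.5 and 15.4 on the normal array. Ms4a4b, known from T cells, had 7632 on the tumor-draining array and 1385 on the normal array, a difference of 2.52, close to that of Ms4a1 (2.34). Ms4a4d, the Ms4a gene that was at least 2-fold lower, was at -2.49, with 74.5 on the tumor-draining array and 435 on the normal array. The part of the cell types that carry these genes was not tested.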
